A study of Mus musculus with 9 samples.

Results

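The 10 genes described here, Ebf1, Pax5, Ikzf1, Ikzf2, Ikzf3, Foxo1, Spi1, Spib, Lef1 and Runx1, encode transcription factors of B-cell commitment. They were chosen by name and found by gene identifier among the 50686 genes of the count files. All 10 were among the 13852 genes that passed the filter on low counts. The RNA came from BCR/ABLp185+ cell lines, that is mouse bone marrow cells of the strain C57BL/6N transformed by the BCR/ABL oncogene. A single line represented each genotype (wt, Stat5a-/-, Stat5b-/-), and 3 technical replicates per line gave 9 libraries. All lines carried the oncogene, grew in the same medium and have no treatment in their labels. Because each genotype was 1 immortalized line and the replicates were technical, the p-values measure the spread between libraries of a line, and genotype and line cannot be told apart.

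In B lymphopoiesis, PU.1 (the product of Spi1), Ikaros (Ikzf1) and RUNX1 prepare multipotent progenitors for the lymphoid fate. EBF1 and FOXO1 then specify the B lineage, and PAX5 commits cells to it by activating B-cell genes and repressing genes of other lineages. Aiolos (Ikzf3) and Spi-B (Spib) are relatives of Ikaros and PU.1 that are used more in later B-cell stages, Helios (Ikzf2) is an Ikaros relative best known from T cells, and LEF1 transmits Wnt signals in early B and T cells. STAT5, which BCR/ABL activates, acts downstream of the interleukin-7 receptor, and several of these genes carry mutations in human B-cell leukemia.

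The promoters of 3 factors are shown because these genes changed most clearly or hold a motif of interest: Spib and Ikzf1 changed in both knockout lines, and Foxo1 differed between them. The windows, from RefSeq on GRCm38.p6, hold 250 bases before and 50 bases after an annotated start and are written 5′ to 3′ on the strand of the gene, with the match in capitals. Both strands of every window were searched for 4 motifs: the STAT palindrome TTCNNNGAA, the EBF1 motif CCCNNGGG, a longer EBF1 palindrome that contains it, and the core of the interferon response element. The last pair, of 10 letters each, is given by name.
Spib (chr7:44532022-44532321, minus strand): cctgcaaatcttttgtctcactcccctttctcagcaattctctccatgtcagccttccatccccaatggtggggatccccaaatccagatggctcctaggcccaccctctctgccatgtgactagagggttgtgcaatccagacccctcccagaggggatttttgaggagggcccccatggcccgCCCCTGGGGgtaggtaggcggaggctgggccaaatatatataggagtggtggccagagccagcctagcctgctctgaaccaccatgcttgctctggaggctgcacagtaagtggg
Ikzf1, second of its annotated starts (chr11:11689927-11690226, plus strand): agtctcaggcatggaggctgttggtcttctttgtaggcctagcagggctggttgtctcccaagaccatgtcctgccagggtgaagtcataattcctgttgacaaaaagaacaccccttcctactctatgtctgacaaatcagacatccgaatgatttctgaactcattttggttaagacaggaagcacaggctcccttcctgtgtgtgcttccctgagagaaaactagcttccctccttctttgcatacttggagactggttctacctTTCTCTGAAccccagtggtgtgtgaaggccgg
Foxo1 (chr3:52268087-52268386, plus strand): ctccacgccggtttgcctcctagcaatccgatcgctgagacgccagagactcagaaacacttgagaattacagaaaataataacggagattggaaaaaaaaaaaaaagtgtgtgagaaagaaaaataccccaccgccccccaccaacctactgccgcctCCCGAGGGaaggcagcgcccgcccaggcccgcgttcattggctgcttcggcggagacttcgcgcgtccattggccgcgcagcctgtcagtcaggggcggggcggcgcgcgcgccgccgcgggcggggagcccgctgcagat
The Spib window holds a pair of overlapping CCCNNGGG matches, 65 and 64 bases before the start, and such a match lay in 13.7% of 32851 windows of all genes. The Ikzf1 window holds TTCNNNGAA 18 bases after the start, a motif of 8.3% of all windows. The Foxo1 window holds CCCNNGGG once, 91 bases before the start. That match lies within a match of the longer EBF1 palindrome, which 0.904% of all windows hold. CCCNNGGG also occurs in the window of the other Ikzf1 start. The interferon response element core, found in 3.44% of all windows, occurs in the window of an Ebf1 start, 155 bases before it. In all, 13 windows of 7 factors were searched, and Ikzf2, Ikzf3 and Spi1 were not among the windows used here. These matches describe the letters, and binding was not measured.

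Library totals lay between 11948136 and 19016396 counted reads. Values are normalised CPM, that is counts scaled to a common library total with TMM factors, and CPM per kb of gene model where different genes are compared. The knocked-out genes kept reads in their own line. In wt, Stat5a-/- and Stat5b-/- in turn, Stat5a had 43.1 ± 6.35, 12.4 ± 1.02 and 83.7 ± 10.2 CPM (SD, n = 3), and Stat5b had 105.5 ± 1.96, 142 ± 15.9 and 63.4 ± 7.72. The 9 B-lineage markers, among them Cd79a and Igll1, had reads in every line and summed to 6083 to 6475 CPM in wt, 8164 to 8790 in Stat5a-/- and 7709 to 8447 in Stat5b-/-. All 16 T-cell markers had reads in every line as well, and their sum was 734 to 1057 CPM in wt, 1126 to 1335 in Stat5a-/- and 1727 to 2541 in Stat5b-/-. In Stat5a-/- 6 of the 16 rose, beside 19.8% of all tested genes, in Stat5b-/- 15 rose, beside 24.2%, and none fell in either, where 16.3% and 22% of all tested genes fell. The 14 myeloid markers summed to at most 23.0 CPM in any library, with Elane at 0 to 1 read in wt and at 0 in both knockout lines. The 8 erythroid markers summed to 11.6 to 14.0 CPM in wt, 12.4 to 14.8 in Stat5a-/- and 3.15 to 3.81 in Stat5b-/-.

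All 10 factors had reads in every library, and the order of their levels per length placed Pax5 and Ikzf1 on top in each line. In wt the mean level was 137 CPM per kb for Pax5 and 133 for Ikzf1, whose ranges overlapped, followed by Lef1 with 74.2, Ebf1 with 61.5 and Foxo1 with 44.5. Spi1 with 21.1 and Runx1 with 19.9 overlapped, and Spib with 13.4, Ikzf3 with 3.97 and Ikzf2 with 0.137 came last. Spib moved from the eighth place in wt to the third in Stat5a-/-, with 68.0 CPM per kb, where its range overlapped that of Ebf1 with 61.0, and to the sixth in Stat5b-/-, with 39.2. Ikzf3 reached 25.8 CPM per kb in Stat5b-/-, where its range overlapped that of Spi1.

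**Figure D1:**
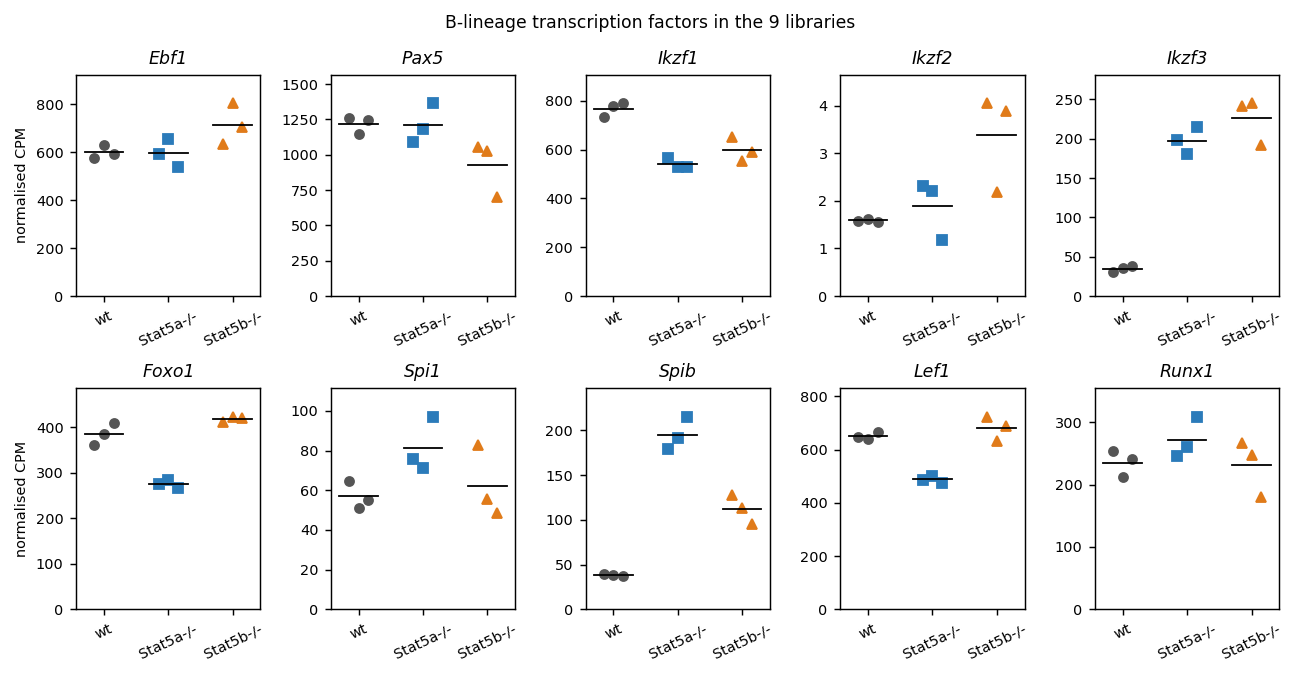
Normalised CPM of each factor (vertical axes start at 0 and differ between panels) in the 3 libraries of each line, with points for libraries and a bar for the mean. Ikzf3 and Spib lay higher in every knockout library than in every wt library, Ikzf1 lay lower, and Foxo1 and Lef1 were lowest in Stat5a-/-.

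In Stat5a-/- against wt, 3 of the 10 factors rose (Ikzf3, Spi1, Spib), 3 fell (Ikzf1, Foxo1, Lef1) and 4 did not pass an adjusted p of 0.05. Among all tested genes, 19.8% rose and 16.3% fell at the same limit. In Stat5b-/- against wt, 3 rose (Ikzf2, Ikzf3, Spib), 2 fell (Pax5, Ikzf1) and 5 did not pass, beside 24.2% and 22% of all tested genes. Past a fold change of 2 as well, only rises were left among the factors, 2 in Stat5a-/- (Ikzf3, Spib) and 3 in Stat5b-/- (Ikzf2, Ikzf3, Spib), where 7.75% and 10.6% of all tested genes rose past both limits and 6.49% and 8.44% fell. The libraries of the lines compared did not overlap for 6 factors in Stat5a-/- (49.2% of all tested genes) and for 7 in Stat5b-/- (54.2%). The median log2 fold change of the 10 factors was 0.10 in Stat5a-/- and 0.12 in Stat5b-/-, against 0.01 and 0.02 over all tested genes. These comparisons share the wt libraries, so that their values are given side by side.

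**Figure D2:**
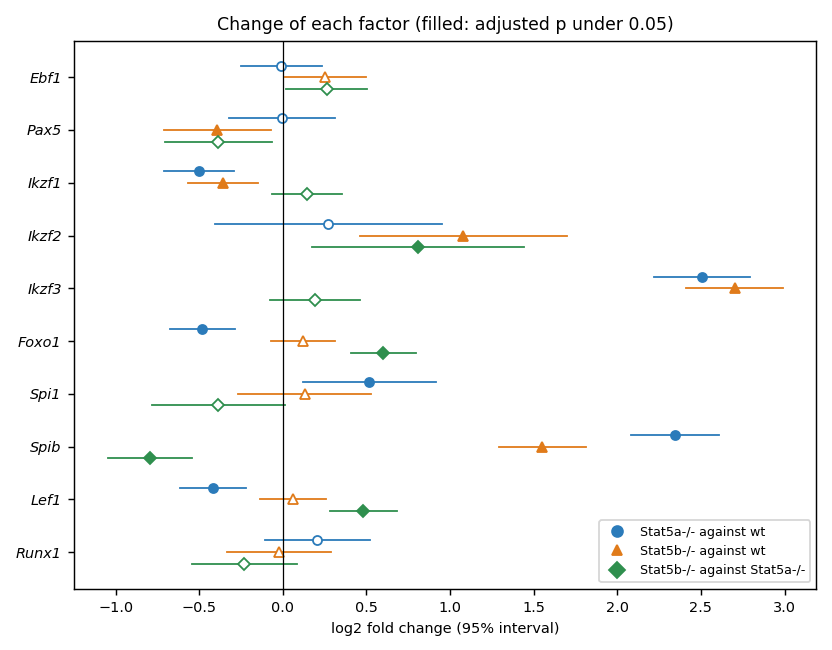
Log2 fold change of each factor with its 95% interval (horizontal axis) in the 3 comparisons, with filled symbols for an adjusted p under 0.05 in edgeR's quasi-likelihood test. Ikzf3 and Spib had the largest changes, with log2 fold changes from 1.55 to 2.70 against wt, and the other called changes against wt lay between -0.50 and 1.08.

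Ebf1 and Pax5, the factors that define the B lineage, stayed close to wt in Stat5a-/-. Ebf1 had 577, 631 and 591 CPM in the wt libraries, 594, 654 and 539 in Stat5a-/- and 635, 803 and 705 in Stat5b-/-. The Stat5b-/- libraries were all above the wt libraries and overlapped those of Stat5a-/-. The log2 fold change of Ebf1 was -0.01 in Stat5a-/- (95% interval -0.25 to 0.23) and 0.25 in Stat5b-/- (0.01 to 0.50), with adjusted p of 0.959 and 0.0825 (edgeR's quasi-likelihood test, Benjamini-Hochberg over all genes tested). Pax5, the commitment factor, had 1258, 1146 and 1247 CPM in wt, 1090, 1186 and 1363 in Stat5a-/- and 1056, 1026 and 700.2 in Stat5b-/-. All Stat5b-/- libraries lay below all others, and replicate 3 lay far below the rest. Pax5 fell in Stat5b-/- by 0.39 on the log2 scale (standard error 0.15, edgeR adjusted p = 0.0445). Without Stat5b-/- replicate 3 the log2 fold change was -0.22 (edgeR adjusted p = 0.15), and the call was also lost without any one of the wt libraries or without Stat5a-/- replicate 2. In Stat5a-/- the log2 fold change of Pax5 had an interval from -0.32 to 0.31 (edgeR adjusted p = 0.985). With the offset for GC content it was -0.20 (edgeR adjusted p = 0.135).

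The 14 genes that EBF1 and PAX5 activate mostly rose, and the part of these factors in the rises was not tested. Pax5 did not pass as higher. Ebf1 did so in Stat5b-/- only with the offset for GC content (edgeR adjusted p = 0.0288) or without Stat5b-/- replicate 1 (0.0449). Of the 14 genes, 8 rose and 1 fell in Stat5a-/-, beside 19.8% and 16.3% of all tested genes. In Stat5b-/- 10 rose and 1 fell, beside 24.2% and 22%. Cd22, an inhibitory co-receptor of the B-cell receptor, went from 36.0 ± 1.20 CPM (SD, n = 3) to 111 ± 13.7 in Stat5a-/- and 50.2 ± 3.87 in Stat5b-/-, log2 fold changes of 1.62 and 0.48 (edgeR adjusted p = 1.18e-07 and 0.00345). Cd79a, the signalling chain of the B-cell receptor, rose by 0.83 and 1.09 on the log2 scale (edgeR adjusted p = 2.54e-04 and 2.22e-05). Blk, a B-cell kinase of the Src family, had 4 to 9 reads a library in wt, 6 to 9 in Stat5a-/- and 43 to 65 in Stat5b-/-. The fall was that of Bank1, a B-cell scaffold protein, with log2 fold changes of -1.67 and -2.35 (edgeR adjusted p = 1.17e-07 and 5.66e-09). The median log2 fold change of the 14 genes was 0.50 in Stat5a-/- and 0.53 in Stat5b-/-. In Stat5b-/- against Stat5a-/- 3 of them were higher and 3 lower, where 16.4% of all tested genes were higher and 17.5% lower, among them Cd72, a B-cell co-receptor, at 1.06 and Cd22 at -1.15.

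Of 8 genes that PAX5 represses, 7 were tested. In Stat5a-/- 2 rose and 1 fell, in Stat5b-/- 5 rose and 1 fell, and the direct comparison of the knockout lines had 4 higher in Stat5b-/-. The shares of all tested genes were 19.8% and 16.3% in Stat5a-/-, 24.2% and 22% in Stat5b-/-, and 16.4% higher in the direct comparison, so the Stat5a-/- counts lay near the background. Notch1, the receptor that directs T-cell fate, rose in both knockout lines with log2 fold changes of 1.82 and 1.88 (edgeR adjusted p = 1.70e-05 and 1.10e-05). Grap2, an adaptor of T-cell receptor signalling, rose by 1.77 and 2.02 on the log2 scale. Flt3, a cytokine receptor of early progenitors, had 3.72 CPM in wt, 1.19 in Stat5a-/- and 2.26 in Stat5b-/-, log2 fold changes of -1.64 and -0.73 (edgeR adjusted p = 2.93e-04 and 0.0223). Csf1r, the macrophage colony-stimulating factor receptor, had 7 to 14 reads a library in wt and 15 to 24 in Stat5b-/-, a log2 fold change of 1.09 (edgeR adjusted p = 0.0136). Emb, an adhesion molecule, was higher in Stat5b-/- than in Stat5a-/- by 1.00 on the log2 scale (edgeR adjusted p = 0.00837). The summed T-cell markers were 1.38-fold the wt mean in Stat5a-/- and 2.41-fold in Stat5b-/-, and their part in these rises was not tested.

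Members of the Ikaros family moved in opposite directions. Ikzf3, which encodes Aiolos, had 30.1, 36.1 and 37.9 CPM in the wt libraries, 198, 180.0 and 215 in Stat5a-/- and 241, 245 and 191 in Stat5b-/-. Every knockout library lay far above every wt library, and the knockout lines overlapped. Ikzf3 rose 5.69-fold in Stat5a-/- (log2 fold change 2.51, standard error 0.13, edgeR adjusted p = 8.41e-09) and 6.50-fold in Stat5b-/- (2.70, 0.13, adjusted p = 4.16e-09). Between the knockout lines its log2 fold change was 0.19, with an interval from -0.07 to 0.46 (edgeR adjusted p = 0.25). Ikzf3 is also used by T cells. Its fold in Stat5a-/- stands beside 1.38-fold for the summed T-cell markers and its fold in Stat5b-/- beside 2.41-fold, and their part in its rise was not tested.

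Ikzf1, the founding member, moved the other way. It had 734, 778 and 789.9 CPM in wt, 566, 529 and 530.2 in Stat5a-/- and 653, 554 and 592 in Stat5b-/-. All knockout libraries lay below all wt libraries. Ikzf1 fell by 0.50 on the log2 scale in Stat5a-/- (standard error 0.096, edgeR adjusted p = 0.0011) and by 0.36 in Stat5b-/- (0.096, adjusted p = 0.00861). The knockout lines did not pass against each other, with a log2 difference of 0.15 (interval -0.06 to 0.35, edgeR adjusted p = 0.264).

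Ikzf2, the gene for Helios, was the least abundant factor, with 25 to 32 reads a library in wt, 13 to 33 in Stat5a-/- and 32 to 59 in Stat5b-/-. In normalised CPM this was 1.59, 1.62 and 1.56 in wt, 2.31, 2.20 and 1.17 in Stat5a-/- and 4.05, 2.19 and 3.88 in Stat5b-/-. The Stat5b-/- libraries lay above those of wt, and replicate 2 of Stat5b-/- lay within the range of Stat5a-/-. Ikzf2 rose in Stat5b-/- by 1.08 on the log2 scale (standard error 0.29, edgeR adjusted p = 0.00767) and had a log2 fold change of 0.27 in Stat5a-/- (adjusted p = 0.538). Against Stat5a-/- it was higher by 0.81 (edgeR adjusted p = 0.0491), a call that was lost with DESeq2 (adjusted p = 0.0503), with RLE normalization (0.0517), with only the 2 knockout lines in the fit (0.0767) and when any one of 8 of the libraries was left out. Ikzf2 is expressed in T cells, whose summed markers were also highest in Stat5b-/-, and their part was not tested.

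The makeup of the family by level per kb shifted with these changes. Aiolos held 2.88% ± 0.23 (SD, n = 3) of the summed CPM per kb of the 5 family genes in wt but 19.3% ± 1.51 in Stat5a-/- and 19.8% ± 2.52 in Stat5b-/-. The share of Ikzf1 was 96.8% ± 0.29, 80.2% ± 1.48 and 79.6% ± 2.41. Ikaros was thus still the main family transcript in each library. Ikzf4, which encodes Eos and is named after its value was seen, rose in Stat5b-/- by 1.00 on the log2 scale (edgeR adjusted p = 0.0241) and remained under 0.48% of the family in each library.

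**Figure D3:**
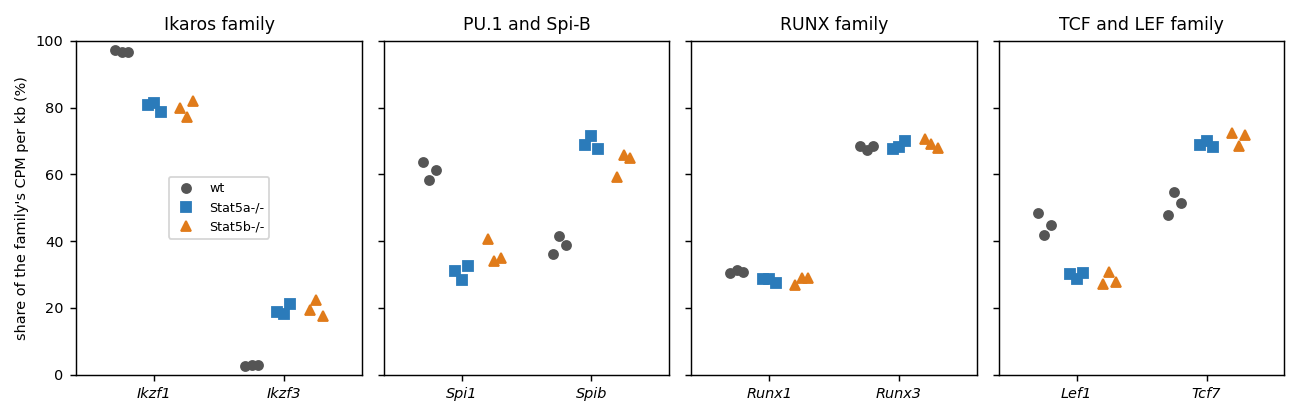
Share of each gene in the summed CPM per kb of its family (vertical axis, %) in each library, for 2 genes of each of 4 families. Ikzf3 went from 2.88% to 19.3% and 19.8% of the Ikaros family and Spib from 38.9% to 69.3% and 63.3% of the PU.1 pair, while Runx1 and Runx3 kept similar shares.

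Spib, the gene for Spi-B, rose in both knockout lines and by more in Stat5a-/-. It had 39.2, 38.6 and 37.3 CPM in wt, 179, 191 and 215 in Stat5a-/- and 128, 114 and 95.9 in Stat5b-/-. The 3 lines did not overlap. The rise was 5.08-fold in Stat5a-/- (log2 fold change 2.35, standard error 0.12, edgeR adjusted p = 7.09e-09) and 2.93-fold in Stat5b-/- (1.55, 0.12, adjusted p = 2.85e-07). Stat5b-/- was lower than Stat5a-/- by a log2 difference of -0.79 (standard error 0.12, edgeR adjusted p = 1.72e-04). In this comparison 17.5% of all tested genes were lower and 16.4% higher. The summed T-cell markers were 1.38-fold the wt mean in Stat5a-/- and 2.41-fold in Stat5b-/-, higher than wt in both lines as Spib was and in the other order between them, and their part in the Spib values was not tested.

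Spi1, which encodes PU.1, had 64.7, 50.9 and 55.3 CPM in wt, 75.9, 71.4 and 97.1 in Stat5a-/- and 82.7, 55.5 and 48.5 in Stat5b-/-. The Stat5a-/- libraries lay above those of wt, and the Stat5b-/- libraries overlapped both. Spi1 rose in Stat5a-/- by 0.52 on the log2 scale (standard error 0.18, edgeR adjusted p = 0.0423), a call that was lost with RLE normalization (adjusted p = 0.0534) and in 6 of the 9 fits that left out 1 library. Without Stat5a-/- replicate 3 its log2 fold change was 0.34 (edgeR adjusted p = 0.19), and with the offset for GC content it was 0.30. In Stat5b-/- the log2 fold change was 0.13 (interval -0.27 to 0.53, edgeR adjusted p = 0.589). Spi-B accounted for 38.9% ± 2.66 (SD, n = 3) of the summed CPM per kb of the pair in wt, 69.3% ± 2.05 in Stat5a-/- and 63.3% ± 3.61 in Stat5b-/-, so that it was the minor transcript of the pair in wt and the major one in both knockout lines. Spic, the third gene of this subfamily, did not pass the filter on low counts.

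Of 11 PU.1 target genes, most of them myeloid, 9 were tested. In Stat5a-/- 2 rose and 3 fell, and in Stat5b-/- 2 rose and 2 fell. Both rises and the Stat5b-/- falls lay near the shares of all tested genes, which were 19.8% rising and 16.3% falling in Stat5a-/- and 24.2% and 22% in Stat5b-/-. Fcgr1, a high-affinity Fc receptor, had 19 to 29 reads a library in wt, 3 to 4 in Stat5a-/- and 1 to 5 in Stat5b-/- (edgeR adjusted p = 9.76e-04 and 1.43e-04). Csf2ra, a chain of the GM-CSF receptor, rose in Stat5a-/- by 0.60 on the log2 scale (edgeR adjusted p = 0.00246), and Lyz2, which encodes lysozyme, rose in Stat5b-/- by 1.07 (adjusted p = 7.88e-04) from 3.90 to 8.23 CPM.

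Foxo1, which cooperates with EBF1 and drives recombinase and interleukin-7 receptor genes, fell only in Stat5a-/- and differed between the knockout lines. It had 362, 385 and 411 CPM in wt, 277, 284 and 268 in Stat5a-/- and 411, 424 and 422 in Stat5b-/-. The Stat5a-/- libraries lay below all others, and those of Stat5b-/- lay just above the highest wt library. Foxo1 fell in Stat5a-/- by 0.48 on the log2 scale (standard error 0.089, edgeR adjusted p = 8.50e-04), while its log2 fold change in Stat5b-/- was 0.12 (interval -0.07 to 0.31, adjusted p = 0.298). In the direct test Stat5b-/- was higher than Stat5a-/- by 0.60 (standard error 0.089, edgeR adjusted p = 2.07e-04). Foxo1 held 76.9%, 70.4% and 76.1% of the CPM per kb of the FOXO family in wt, Stat5a-/- and Stat5b-/-. Foxo3 and Foxo4 did not pass in any comparison, and Foxo6 had 16 to 27 reads a library in wt, 1 to 5 in Stat5a-/- and at most 1 in Stat5b-/-.

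The 12 FOXO1 target genes moved in both directions. In Stat5a-/- 5 rose and 4 fell, in Stat5b-/- 7 rose and 3 fell, and in Stat5b-/- against Stat5a-/- 8 were higher and 2 lower. All tested genes rose and fell in shares of 19.8% and 16.3%, 24.2% and 22%, and 16.4% and 17.5% in these comparisons. Rag1, a subunit of the V(D)J recombinase, had 1002 to 1328 reads a library in wt, 1 to 3 in Stat5a-/- and 7 to 11 in Stat5b-/- (edgeR adjusted p = 2.13e-11 and 3.67e-11). Rag2, the other subunit, had 477 to 744, 0 to 2 and 6 to 16 reads (edgeR adjusted p = 1.35e-09 and 2.94e-09). Both recombinase genes thus had few reads in both knockout lines, and the part of Foxo1 in this was not tested. Il7r, the receptor for interleukin-7, had log2 fold changes of -1.10 in Stat5a-/- and -0.43 in Stat5b-/- (edgeR adjusted p = 2.57e-05 and 0.0179). Klf2, a regulator of lymphocyte trafficking, rose by 1.36 and 0.92 on the log2 scale (edgeR adjusted p = 4.01e-06 and 1.11e-04). Klf2 is also expressed in T cells, and the part of the T-cell markers in its rise was not tested.

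**Figure D4:**
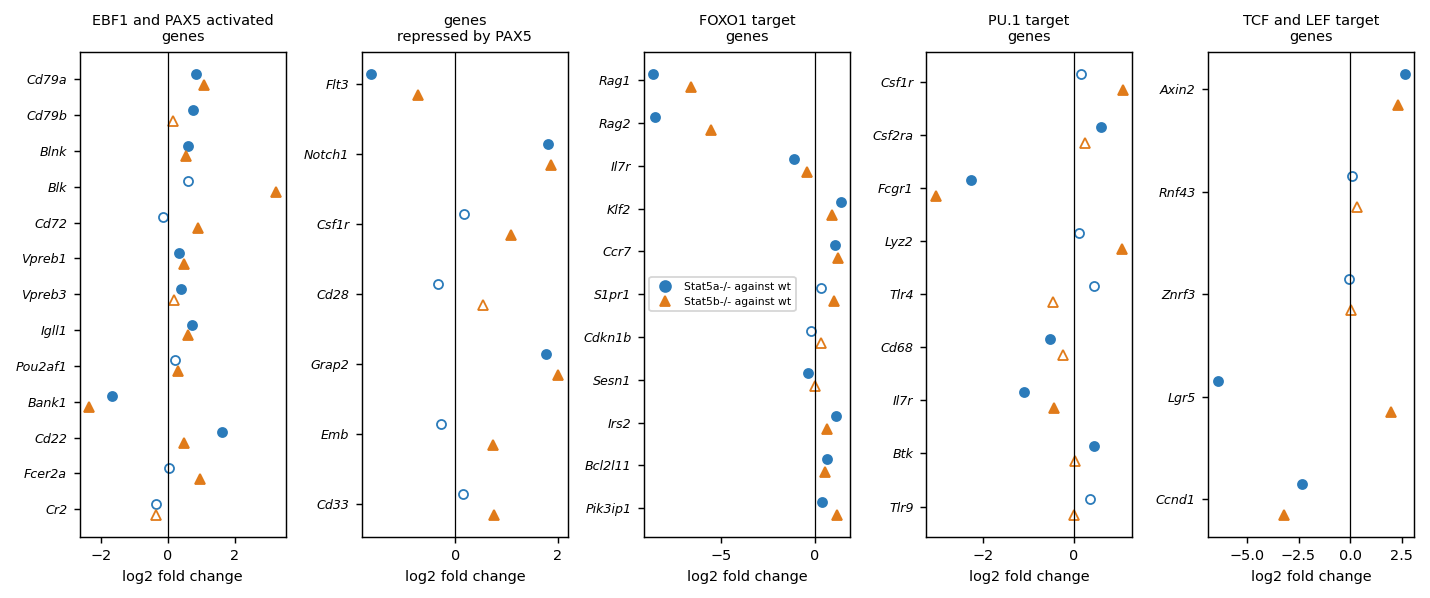
Log2 fold change against wt (horizontal axes, which differ between panels) of tested genes of 5 lists of targets, with filled symbols for an adjusted p under 0.05. Most genes activated by EBF1 and PAX5 lay above 0, and Rag1 and Rag2 lay far below 0 in both knockout lines with few reads there.

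Lef1 followed the pattern of Foxo1. It had 647, 640.3 and 668 CPM in wt, 488, 501 and 475 in Stat5a-/- and 723, 633 and 688 in Stat5b-/-. The Stat5a-/- libraries lay below all others, and those of wt and Stat5b-/- overlapped. Lef1 fell in Stat5a-/- by 0.42 on the log2 scale (standard error 0.091, edgeR adjusted p = 0.00277), had a log2 fold change of 0.06 in Stat5b-/- (interval -0.13 to 0.26, adjusted p = 0.596), and exceeded the Stat5a-/- level in Stat5b-/- by 0.48 (standard error 0.091, adjusted p = 0.00133). Lef1 is transcribed in T cells too. Of the 16 T-cell markers, 6 rose and 0 fell in Stat5a-/- against wt, where Lef1 fell and where 19.8% and 16.3% of all tested genes rose and fell. Between the knockout lines 15 of the 16 passed the test as higher in Stat5b-/-, as Lef1 did, beside 16.4% of all tested genes, and the median log2 difference over the 16 was 0.81. Their part in the Lef1 values was not tested.

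Tcf7, the gene for the relative TCF1 of early T cells, went from 224 ± 29.9 CPM (SD, n = 3) to 338 ± 24.9 in Stat5a-/- and 509 ± 81.6 in Stat5b-/-. Its log2 fold changes against wt were 0.59 and 1.19 (edgeR adjusted p = 0.0035 and 1.15e-05), beside the 1.38-fold and 2.41-fold sums of the T-cell markers, whose part was not tested. Tcf7l2 had log2 fold changes of -1.59 and -2.06 (edgeR adjusted p = 9.41e-07 and 8.27e-08). The share of Lef1 in the CPM per kb of the family went from 45.0% ± 3.21 (SD, n = 3) to 29.9% ± 0.99 in Stat5a-/- and 28.6% ± 2.03 in Stat5b-/-, a value with no test of its own. Lef1 thus held a smaller share in Stat5b-/- although its own level did not differ detectably from wt.

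Of 8 TCF and LEF target genes, 5 were tested. In Stat5a-/- 1 rose and 2 fell, in Stat5b-/- 2 rose and 1 fell, and Rnf43 and Znrf3 did not pass in either, with log2 fold changes of 0.07 and 0.30 for Rnf43 and -0.05 and 0.01 for Znrf3. All tested genes rose and fell in shares of 19.8% and 16.3% in Stat5a-/- and 24.2% and 22% in Stat5b-/-. Axin2, a negative regulator of Wnt signalling, rose in both knockout lines, from 2.62 ± 0.60 CPM (SD, n = 3) in wt to 16.6 ± 1.29 and 13.1 ± 1.18, log2 fold changes of 2.64 and 2.31 (edgeR adjusted p = 7.37e-08 and 2.45e-07). Ccnd1, the cell-cycle gene for cyclin D1, fell by 2.34 in Stat5a-/- and by 3.21 in Stat5b-/- on the log2 scale (edgeR adjusted p = 2.86e-07 and 1.92e-08). Lgr5, a receptor for R-spondins, had 274 to 306 reads a library in wt, 1 to 3 in Stat5a-/- and 806 to 1016 in Stat5b-/-, so that it fell in one knockout line and rose in the other (edgeR adjusted p = 1.20e-09 and 1.14e-07).

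Runx1, a regulator of early lymphoid and myeloid progenitors, did not pass in any comparison. It had 254, 212 and 241 CPM in wt, 246, 260 and 309 in Stat5a-/- and 267, 248 and 179.8 in Stat5b-/-, and the 3 lines overlapped. Its log2 fold change was 0.21 in Stat5a-/- (interval -0.11 to 0.52, edgeR adjusted p = 0.295) and -0.02 in Stat5b-/- (-0.34 to 0.29, adjusted p = 0.912). Runx3 held 68.0% of the CPM per kb of the family in wt, 68.6% in Stat5a-/- and 69.2% in Stat5b-/-, ahead of Runx1 with 30.9%, 28.2% and 28.3%. Runx2 rose from 5.97 CPM to 22.4 and 15.1, log2 fold changes of 1.90 and 1.33 (edgeR adjusted p = 1.69e-06 and 4.00e-05). Cbfb, which encodes the common partner of the RUNX proteins, did not pass in any comparison.

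Between the knockout lines, 3 factors were higher in Stat5b-/- (Ikzf2, Foxo1, Lef1), 1 was lower (Spib) and 6 did not pass, beside 16.4% of all tested genes higher and 17.5% lower. The libraries of the knockout lines did not overlap for 4 factors, Pax5, Foxo1, Spib and Lef1, and for 44.8% of all tested genes. None of the 4 called differences passed a fold change of 2, where 4.81% of all tested genes were higher and 6.6% lower. Ebf1 at 0.26 (interval 0.02 to 0.51) and Pax5 at -0.39 (interval -0.71 to -0.07) had intervals that left out 0, with edgeR adjusted p of 0.0891 and 0.0597 over all genes.

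Among 15 other genes of the same families, 10 were tested, of which 2 rose and 3 fell in Stat5a-/- and 3 rose and 3 fell in Stat5b-/-. These small counts stand beside 19.8% and 16.3% of all tested genes in Stat5a-/- and 24.2% and 22% in Stat5b-/-. Across the 9 libraries, which form 3 lines, the profile of Ikzf3 in log2 CPM was most like those of A430078G23Rik and Tle4 (Pearson r 0.998 for both), and Tle4 encodes a corepressor of the Groucho family. The profile of Spib was most like those of Smpd1 (0.999), which encodes acid sphingomyelinase, and Fcrla (0.998), a B-cell Fc receptor-like protein. For Ikzf2 they were AW146154 (0.964) and Ccdc71l (0.961). With 3 lines many genes share such a profile, 316 of them above 0.95 for Ikzf3, 198 for Spib and 4 for Ikzf2.

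The genes within 200 kb of the factors were looked at after the values were seen, and those named here were chosen for their changes. Ikzf3 lies on chromosome 11 from 98464902 to 98546031 (GRCm38), 2.23 Mb from the Stat5 genes, while Ikzf1 and Ebf1 on the same chromosome lie 89 and 55.8 Mb away. Grb7, which encodes a signalling adaptor, lies 9529 bp from Ikzf3 and had 11 to 25 reads a library in wt, 1207 to 1498 in Stat5a-/- and 1754 to 3134 in Stat5b-/-, log2 fold changes of 6.78 and 7.42 (edgeR adjusted p = 4.52e-10 and 2.71e-10). Of the 11 tested neighbours of Ikzf3, 3 rose and 0 fell in Stat5a-/-, and 6 rose and 1 fell in Stat5b-/-, most of them by under 1 on the log2 scale. Near Spib, on chromosome 7 from 44525993 to 44532071, Napsa, an aspartic protease gene 40309 bp away, rose by 1.70 and 1.53. The 7 tested neighbours of Ikzf1, on chromosome 11 from 11685003 to 11772926, had 4 falls and no rise in Stat5a-/- and 6 falls and no rise in Stat5b-/-. Among all tested genes 19.8% rose and 16.3% fell in Stat5a-/-, and 24.2% and 22% in Stat5b-/-. Grb10, an adaptor gene 157582 bp from Ikzf1, had 1464 to 1909 reads a library in wt, 663 to 935 in Stat5a-/- and 0 to 10 in Stat5b-/-, and Ddc, which encodes aromatic amino acid decarboxylase and lies 41175 bp away, had 292 to 362, 90 to 143 and 10 to 15.

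**Figure D5:**
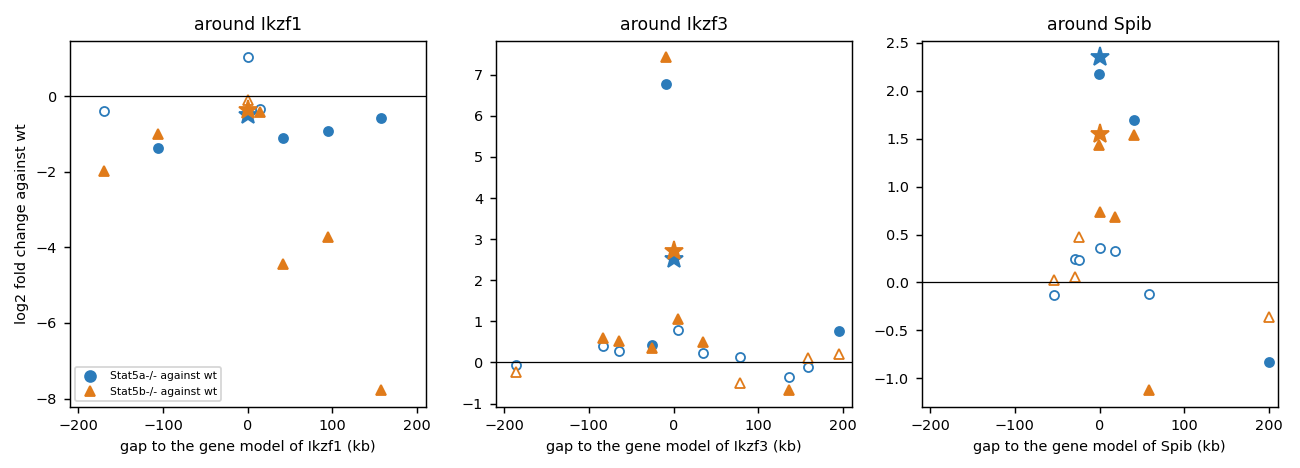
Log2 fold change against wt (vertical axes, which differ between panels) of the tested genes within 200 kb of Ikzf1, Ikzf3 and Spib, by their gap to that gene in kb (negative at lower coordinates). Stars mark the factor itself and filled symbols an adjusted p under 0.05. Grb7 stood far above Ikzf3, and Ikzf1 neighbours lay mostly below 0.

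Counting without strand leaves a limit for 5 of the factors. Genes annotated on the opposite strand overlap 13.7% of the gene model of Lef1, 8.6% of Pax5, 7.78% of Foxo1, 1.24% of Ikzf2 and 0.896% of Runx1, and reads there were not assigned to the factor. No exon of another gene overlaps Ebf1, Ikzf1, Ikzf3, Spi1 or Spib.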

How the data were processed

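The 9 RNA-seq libraries are 3 technical replicates per cell line, with 1 line per genotype. The authors trimmed reads with Trimmomatic, mapped them with STAR to the GENCODE M13 genome (GRCm38) and deposited counts per gene from featureCounts 1.5.1, without normalization. The command in the file header sets no option for strand, multimapping or overlaps, so counting was unstranded and reads on several places or genes were not counted. Library totals were 11948136 to 19016396 counted reads, and reads are not independent molecules.

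Groups follow the sample titles. For the knockout samples, the description text says wt and so conflicts with the titles. Symbols came from GENCODE M21 for 50376 of 50686 genes. After TMM scaling, counts were tested by edgeR 4.0.16 under R 4.3.3 (filterByExpr, glmQLFit and glmQLFTest on all 9 libraries, Benjamini-Hochberg adjustment over 13852 genes). A gene was called at an adjusted p under 0.05, and both limits add a fold change above 2. A standard error is the size of the log2 fold change divided by the root of F. CPM per kb divides by the length of the deposited gene model. The steps were tested on simulated counts.

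The 10 factors, the gene lists and the tests were chosen with earlier results of these data known. Beside the factors and Stat5a and Stat5b, up to 3 called genes per list and comparison with the largest change were eligible to be named, and the 2 genes most like each factor past both limits (mean of at least 5 CPM, 0.5 CPM added). In the promoter windows 4 motifs were searched, and the 10-letter ones are given by name. In these lists 2 genes are counted but not reported by name here. The neighbours within 200 kb were added after seeing the data. Alternatives were DESeq2 1.42.0, RLE factors, no filter or a minimum mean of 10 counts, a fit of the compared lines alone, a replicate block, each library left out and both limits, and, chosen after seeing the data, an offset for GC content (loess, span 0.5). Across genes, the deviations of a library from its line correlated with GC content at -0.494 (wt replicate 2) to 0.543 (Stat5a-/- replicate 3).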

Additional observations from a re-analysis of the deposited data

Results flagged for a closer look

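Ikzf2, Foxo1, Spib and Lef1 were noted because their changes against wt differed between the knockout lines in a direct test. The log2 difference of Stat5b-/- from Stat5a-/- was 0.81 for Ikzf2 (edgeR adjusted p = 0.0491), 0.60 for Foxo1 (edgeR adjusted p = 2.07e-04), -0.79 for Spib (edgeR adjusted p = 1.72e-04) and 0.48 for Lef1 (edgeR adjusted p = 0.00133). The libraries of the knockout lines did not overlap for Foxo1, Spib and Lef1, as for 44.8% of all tested genes in this comparison, and they overlapped for Ikzf2. When each library was left out in turn, the difference stayed between 0.59 and 0.61 for Foxo1, between -0.90 and -0.69 for Spib and between 0.43 and 0.53 for Lef1, and these calls held. For Ikzf2 it lay between 0.58 and 1.04, with edgeR adjusted p from 0.0129 to 0.155. The Ikzf2 call was kept without Stat5b-/- replicate 2 and was lost when any other library of the 9 was left out. Groups of 3 libraries are too small to be searched for single outlying libraries.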

How the results depend on the processing

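The rises of Ikzf3 and Spib and the falls of Ikzf1 against wt passed the limit on adjusted p in every alternative run. Leaving out each library in turn gave log2 fold changes of 2.41 to 2.57 and 2.61 to 2.81 for Ikzf3 in Stat5a-/- and Stat5b-/-. For Spib they were 2.24 to 2.39 and 1.42 to 1.66. The other alternatives gave 2.11 to 2.35 for Spib in Stat5a-/-, and -0.80 to -0.59 for Stat5b-/- against Stat5a-/-. With both limits the number of factors that fell was 0 in each comparison with wt, and between the knockout lines 0 were higher and 0 lower. In Stat5b-/- against Stat5a-/- the number lower was 2 with DESeq2, which added Pax5, and 3 without a filter, which added Pax5 and Spi1. Apart from the fits with a library left out, the alternatives gave log2 differences of -0.40 to -0.22 for Pax5 in this comparison. Over the libraries left out in turn, the number of factors that fell in Stat5b-/- against wt was 1 to 2, and the number lower in Stat5b-/- than in Stat5a-/- was 1 to 3, with 3 without Stat5b-/- replicate 1. Ebf1 passed in Stat5b-/- against wt with the GC offset (0.26, edgeR adjusted p = 0.0288) and without Stat5b-/- replicate 1 (0.31, adjusted p = 0.0449), where it also passed against Stat5a-/- (0.34, adjusted p = 0.0394).

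The replicate numbers of the titles did not pair the samples. Deviations of same-numbered libraries correlated at -0.0879 on average over 9 pairs, against 0.0439 over 18 other pairs. With the replicate block the number that fell in Stat5b-/- against wt was 1, without Pax5 (edgeR adjusted p = 0.0768), and Ikzf2 between the knockout lines had an adjusted p of 0.0732.

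Signs changed only for log2 fold changes that had not passed. With the GC offset these were Ebf1 in Stat5a-/- (0.087) and Runx1 in Stat5b-/- (0.013). With a library left out, the ranges in Stat5a-/- were -0.095 to 0.028 for Ebf1 (0.026 without wt replicate 2) and -0.13 to 0.048 for Pax5 (0.018 and 0.010 without wt replicates 1 and 3). In Stat5b-/- they were -0.16 to 0.28 for Spi1, -0.0079 to 0.11 for Lef1 and -0.16 to 0.13 for Runx1 (0.031 without wt replicate 1). The cause was not tested. At 13 to 59 reads a library, changes of Ikzf2 are imprecise.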
